A study of Mus musculus with 7 samples.

Results

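The respiratory chain and the ATP synthase were followed through the cell types of the mouse aorta as 100 gene entries (99 symbols) of 31253 genes counted. Members were taken by symbol: the subunits of complex I (Nduf and mt-Nd genes, without the Ndufaf assembly factors), complex II (Sdha to Sdhd), complex III (Uqcr genes and mt-Cytb), complex IV (Cox4 to Cox8 genes and mt-Co genes) and complex V, the ATP synthase (Atp5 and mt-Atp genes). Of these, 87 were encoded in the nucleus, namely 36 of complex I, 4 of II, 8 of III, 21 of IV and 18 of V, and 13 in mitochondrial DNA, namely 7 of I, 1 of III, 3 of IV and 2 of V. Ndufa4 and its paralog Ndufa4l2 were counted with complex IV, where the Ndufa4 protein is now placed. Atp5o stood for 2 gene entries whose annotated spans overlap on chromosome 16, so how reads were divided between them is uncertain. Ndufb1-ps and Cox5b-ps carry symbols of the pseudogene style, and counts of such near copies are likewise uncertain.

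The respiratory chain passes electrons from NADH (complex I) and succinate (complex II) through ubiquinone, complex III and cytochrome c to oxygen at complex IV, and the proton gradient built on the way drives the ATP synthase. Most subunits are made from nuclear genes and imported, while mitochondrial DNA supplies core subunits of every complex except complex II, so that both genomes must be expressed for a complete chain. Some nuclear subunits exist as isoforms that replace each other in certain tissues or at low oxygen, among them Cox4i2, Cox7a1, Cox6a2 and Ndufa4l2. Contractile smooth muscle of large arteries, quiescent adventitial fibroblasts, macrophages and the thin endothelium differ in how much they rely on oxidative phosphorylation.

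The study compared 3 single-cell libraries of aorta from Slc38a2flox/flox mice, called flox controls here, with 4 from Slc38a2deltaEC mice, called knockouts, a name that denotes deletion in endothelial cells. Slc38a2 is the gene of a sodium-coupled transporter of small neutral amino acids. Mice of both genotypes ate a high-salt diet for 3 weeks, so no library shows the aorta on a normal diet. The Cre driver, the age and sex of the mice, and whether each library came from its own mouse, are not stated in the sources used, and p-values therefore measure the spread between these libraries. UMIs (unique molecular identifiers, each standing for 1 captured transcript) were summed per library over cells that a set of marker genes placed in a class, and levels are given as CPM, the UMIs of a gene scaled to the same total of UMIs for each class and library.

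Between 5523 and 12300 cells per library passed the filters, with 22646246 to 73102988 UMIs per library. The gate placed 939 cells in the endothelial class, 17646 in smooth muscle, 34271 in fibroblasts and 3872 in macrophages, and left 11006 of 68662 cells without a class. Endothelial sums were the shallowest, with 39 to 342 cells and 182172 to 1517214 UMIs per library, against 1419658 to 28721502 in smooth muscle, 12882605 to 40843808 in fibroblasts and 604267 to 4219221 in macrophages. Libraries shared 58 to 177 barcodes per pair. Cells with enough markers of 2 classes, which can be doublets and were left out, made up 11.3% of the cells of flox control 1 (1331 cells) and 117 to 349 cells of each other library. The samples' cell type label reads goblet cells, but 0 cells in every library held 3 or more of 7 goblet cell markers.

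Slc38a2 itself was present in the endothelial class of every library, at 444, 393 and 307 CPM in flox controls 1 to 3 and 205, 262, 337 and 270.2 CPM in knockouts 1 to 4. The ranges overlapped, and the log2 difference between knockouts and flox controls was -0.43 (SE 0.23, adjusted p = 0.819 in edgeR). Fibroblasts differed by -0.40 (adjusted p = 0.957) and macrophages by -0.43 (adjusted p = 0.65), so the transcript count did not single out the endothelial class. The sources used do not state which exons were deleted, and 3' tags of a deleted allele can still be counted, so this level does not check the labels.

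Several members carry their comparison in their sequence, and those are shown first. Ndufa4 (coding span chr6:11900538-11907365, minus strand, GRCm38) and Ndufa4l2 (coding span chr10:127514982-127516496, plus strand) are the paralog pair that separated the cell types most. Their coding sequences (GENCODE vM21, without the stop codon, 246 and 261 bases) are printed with the longest run they share, 28 bases, in capitals.
Ndufa4: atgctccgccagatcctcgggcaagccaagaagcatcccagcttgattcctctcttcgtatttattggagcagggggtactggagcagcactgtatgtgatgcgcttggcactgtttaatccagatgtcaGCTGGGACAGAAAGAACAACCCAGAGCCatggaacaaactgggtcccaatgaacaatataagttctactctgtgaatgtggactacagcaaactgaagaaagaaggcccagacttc
Ndufa4l2: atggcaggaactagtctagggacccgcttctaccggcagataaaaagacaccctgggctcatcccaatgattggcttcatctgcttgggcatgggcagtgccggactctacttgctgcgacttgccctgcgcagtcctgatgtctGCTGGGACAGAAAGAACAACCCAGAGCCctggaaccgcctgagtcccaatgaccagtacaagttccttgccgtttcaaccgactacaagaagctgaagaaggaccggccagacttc
In an end-to-end alignment, 175 of 268 columns were identical (65.3%), so reads of either gene can be told apart over most of the coding sequence. The corresponding pair Cox7a1 and Cox7a2 had 63.1% identity and a longest shared run of 12 bases. Among mitochondrially encoded members, mt-Atp8 (chrM:7766-7966, plus strand) shares its last 40 bases with the start of mt-Atp6, printed in capitals, so UMIs in that stretch cannot be assigned to 1 of these 2 genes.
mt-Atp8: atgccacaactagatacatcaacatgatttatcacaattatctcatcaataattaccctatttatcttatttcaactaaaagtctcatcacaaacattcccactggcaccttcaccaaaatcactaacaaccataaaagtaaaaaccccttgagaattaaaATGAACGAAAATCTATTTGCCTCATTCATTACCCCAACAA
The palindrome that forms the core of the sequence that the transcription factor NRF1 binds is held by 5 nuclear members in the window from 250 bases before to 50 bases after the transcription start (RefSeq, GRCm38.p6). They are shown with 10 bases on each side and the palindrome in capitals, which spell the motif searched, at chr15:102671070-102671099 (Atp5g2, minus strand), chr5:108434430-108434459 (Atp5k, minus), chr5:115349101-115349130 (Cox6a1, minus), chr17:56717692-56717721 (Ndufa11, plus) and chr9:108936668-108936697 (Uqcrc1, plus).
Atp5g2: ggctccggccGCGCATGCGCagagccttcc
Atp5k: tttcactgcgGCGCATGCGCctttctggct
Cox6a1: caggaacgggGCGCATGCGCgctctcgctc
Ndufa11: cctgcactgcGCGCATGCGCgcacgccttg
Uqcrc1: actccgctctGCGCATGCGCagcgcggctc
Windows were found for 68 member symbols (73 windows), and 5 of the 73 (6.85%) held this palindrome against 319 of all 32851 windows (0.971%). CCGGAAG, a form of the site of ETS factors such as GABPA was in 17 member windows (23.3%) against 8.86% of all windows. GGGCGGG, the GC box, was in 25 (34.2%) against 25.6%, and TATAAA in 9 (12.3%) against 13.6%. These are matches of letters, searched on both strands, and not binding sites.

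Among the 4 main classes, smooth muscle cells devoted the largest share of their UMIs to the respiratory chain on average, from both genomes. Nuclear encoded members took 1.26% ± 0.131 (SD, n = 7 libraries) of smooth muscle UMIs, 0.979% ± 0.174 of endothelial, 0.655% ± 0.0923 of fibroblast and 0.652% ± 0.113 of macrophage UMIs. Mitochondrially encoded members took 15.4% ± 1.61 in smooth muscle, 7.62% ± 1.54 in endothelial cells, 4.81% ± 0.607 in fibroblasts and 5.54% ± 0.790 in macrophages. The smooth muscle shares were 12.2%, 14.9% and 15.8% in flox controls 1 to 3 and 15.4%, 17.1%, 15.4% and 16.8% in knockouts 1 to 4, and fibroblast shares were 3.88%, 4.27% and 5.43% and 5.08%, 4.65%, 4.84% and 5.55% in the same order. The lowest smooth muscle library thus lay above the highest library of the endothelial, fibroblast and macrophage classes.

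Within each library, smooth muscle exceeded fibroblasts 1.93-fold ± 0.131 for the nuclear sum (lowest 1.70, highest 2.07) and 3.21-fold ± 0.281 for the mitochondrial sum (2.91 to 3.69), in 7 of 7 libraries each. The ratio of mitochondrial to nuclear UMIs was 12.3 ± 0.951 in smooth muscle, 7.77 ± 0.631 in endothelial cells, 7.38 ± 0.517 in fibroblasts and 8.61 ± 1.19 in macrophages. Because mitochondrial UMIs crowd out others in a share, the nuclear sum was also taken over UMIs that are not mitochondrial, where smooth muscle stood 2.17-fold ± 0.147 above fibroblasts. Endothelial cells exceeded fibroblasts 1.49-fold ± 0.130 (nuclear) and 1.57-fold ± 0.189 (mitochondrial), again in 7 of 7 libraries. Macrophages and fibroblasts could not be told apart by the nuclear sum, at 0.995-fold ± 0.0936 with macrophages above in 4 of 7 libraries, while the mitochondrial sum was 1.15-fold ± 0.0964 and above 1 in 7 of 7.

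**Figure D1:**
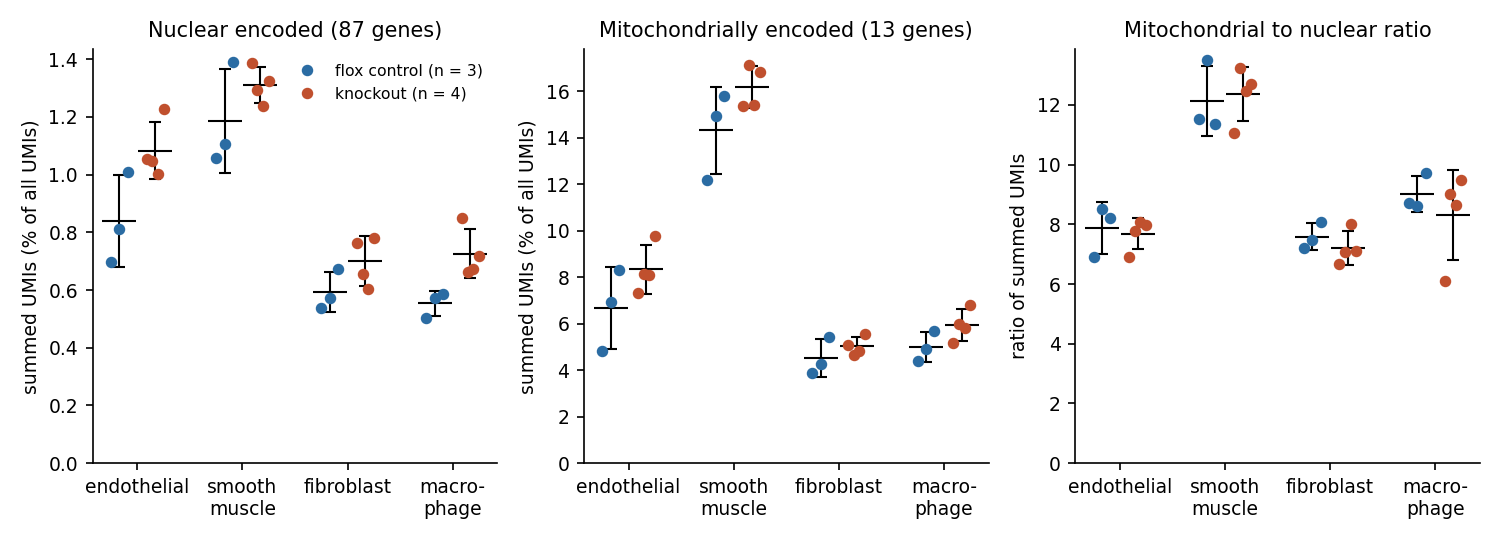
Summed UMIs of the 87 nuclear encoded members (left, % of all UMIs of the class), of the 13 mitochondrially encoded members (middle, %) and their ratio (right) for each cell class. Each point is 1 library, horizontal lines are group means and bars are ± 1 SD, and smooth muscle lies above the other classes in the middle and right panels without overlap, with means of 15.4% and 12.3 over 7 libraries.

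The excess of smooth muscle over fibroblasts was not the same for the 5 complexes. For nuclear members the summed fold was 2.05 for complex IV, 1.99 for I, 1.89 for III, 1.83 for V and 1.51 for II (SD 0.101 to 0.167), and for mitochondrial members it was 3.68 for I, 3.34 for III, 3.06 for V and 2.71 for IV (SD 0.176 to 0.387). Complex II, which has no subunit in mitochondrial DNA and also serves the tricarboxylic acid cycle, thus had the smallest fold in the mean, and its library range of 1.35 to 1.72 lay below every library of complex IV (mean 2.05 ± 0.122). In macrophages the complexes went apart: nuclear complex I was below fibroblasts in 7 of 7 libraries (0.870-fold ± 0.0850), complex III and V were near equality (0.997 and 1.00), and complex II and IV were above in 6 of 7 libraries each (1.16-fold ± 0.141 and 1.11-fold ± 0.103). Endothelial cells had their largest nuclear fold over fibroblasts for complex III (1.69 ± 0.141) and their largest mitochondrial fold for complex V (1.85 ± 0.202).

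Depth and filters moved with part of this pattern. The median UMIs per cell ranged over libraries from 2756 to 5497 in smooth muscle and from 4073 to 6939 in fibroblasts. Cells above 25% mitochondrial UMIs were removed, and without this limit the smooth muscle class held 19964 cells in place of 17646 and the log2 ratio of its mitochondrial sum to that of fibroblasts was 1.79 in place of 1.68. With a limit of 10%, only 1978 of 17646 smooth muscle cells (11.2%) but 95.5% of fibroblasts were left, and the ratio was 0.87 for the mitochondrial and 0.69 for the nuclear sum. This stricter limit removes cells by the level of the members themselves. Summed fibroblast markers were 2570.3 to 3824 CPM in smooth muscle (8 of 8 markers seen, against 31191 to 36027 in fibroblasts), and their part in the smooth muscle values was not tested.

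Per gene, edgeR tested 94 of the 100 members among 12781 genes in the cell type comparisons, with the library as a block. The other 6 (Cox5b-ps, Cox6a2, Cox7b2, Cox8b, Cox8c and the Atp5o entry ENSMUSG00000116933) had too few UMIs. Against fibroblasts, 92 members were higher and 2 lower in smooth muscle at an adjusted p under 0.05, where 37.1% of all genes tested were higher and 37.8% lower. The median log2 fold change was 1.16 over the members, 1.08 over the nuclear and 1.84 over the mitochondrial ones, and -0.01 over all genes. All 36 nuclear complex I members rose, as did all 8 of complex III, all 17 tested of complex V and 14 of 16 of complex IV. All 4 Sdh genes rose, Sdhc, a membrane anchor, by 1.28 (SE 0.07), Sdhb, the iron-sulfur subunit, by 0.91 (SE 0.07), and the flavoprotein Sdha and the anchor Sdhd by 0.37 (SE 0.08) and 0.39 (SE 0.09).

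Of the 13 mitochondrial transcripts, mt-Nd4l rose most in smooth muscle. This small complex I subunit (chrM:9877-10173) stood at 2039.9, 2977 and 2457 CPM in flox controls and 2708, 2718, 3036 and 2477 CPM in knockouts in smooth muscle, against 427, 546 and 549.7 CPM and 648, 489.7, 652 and 536 CPM in fibroblasts. The 2 classes did not overlap, and the log2 fold change was 2.37 (SE 0.09, adjusted p = 1.04e-17). The complex I subunits mt-Nd5 (2.19), mt-Nd4 (2.08), mt-Nd2 (1.91), mt-Nd3 (1.86) and mt-Nd1 (1.84) and the ATP synthase subunit mt-Atp8 (2.12) followed, then mt-Cytb of complex III (1.84), mt-Co3, mt-Atp6 (1.70), mt-Co2 (1.67) and mt-Nd6 (1.63), and mt-Co1, the catalytic subunit of complex IV, had the smallest change at 1.40 (SE 0.09, adjusted p = 1.58e-13).

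The mixture of mitochondrial transcripts differed between classes in the same sense. Of all UMIs of the 13 genes, mt-Co1 made up 16.6% ± 1.35 in smooth muscle (library range 14.9% to 18.4%), 18.5% ± 1.11 in endothelial cells, 21.6% ± 1.57 in fibroblasts (19.6% to 23.4%) and 24.1% ± 1.44 in macrophages (22.1% to 26.1%). For mt-Nd4 the order was turned, with 15.5% to 16.7% in smooth muscle, 14.3% ± 0.401 in endothelial cells, 13.1% ± 0.426 in fibroblasts and 12.7% ± 0.383 in macrophages. Smooth muscle and fibroblast libraries did not overlap for either gene, while fibroblasts and macrophages did. Macrophages carried less mt-Cytb, at 8.91% ± 0.274 (8.40% to 9.20%) against 11.1% ± 0.156 (10.9% to 11.4%) in fibroblasts, and endothelial cells more mt-Atp8, at 0.525% ± 0.0790 (0.462% to 0.688%) against 0.347% ± 0.0187 (0.323% to 0.370%).

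**Figure D2:**
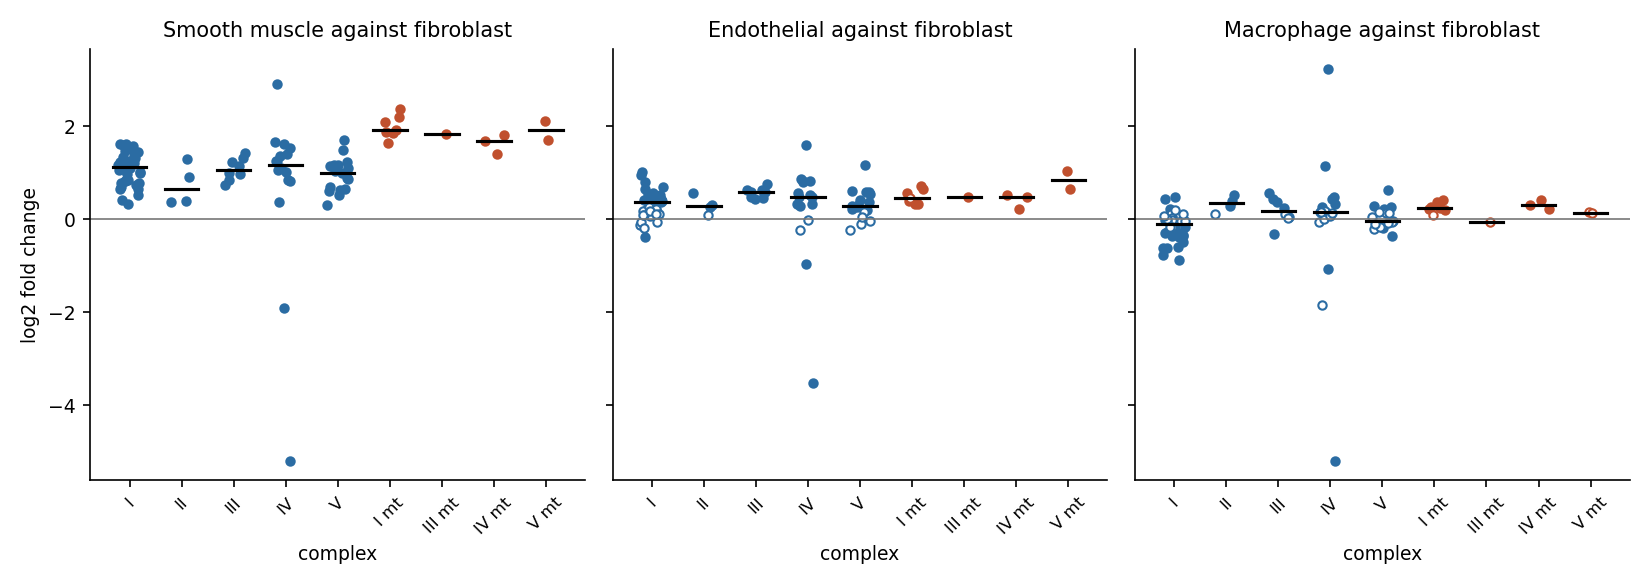
Log2 fold change of each tested member against fibroblasts in smooth muscle, endothelial cells and macrophages, by complex, with nuclear encoded members in blue and mitochondrially encoded members (mt) in orange. Filled points have an adjusted p under 0.05 in edgeR and black lines are medians, and the 2 members below 0 in smooth muscle are Cox6b2 at -1.90 and Ndufa4l2 at -5.19.

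Endothelial cells also exceeded fibroblasts, by less. Of 94 members, 66 were higher and 3 lower (25.9% and 29.4% of all genes tested), with a median of 0.40 against -0.01 over all genes. All 8 nuclear members of complex III rose, as did 12 of 13 mitochondrial members, 12 of 16 of complex IV, 12 of 17 of complex V, 19 of 36 of complex I and 3 of 4 Sdh genes. The largest rise among well measured members was that of Atp5g2, 1 of 3 genes whose products yield the same c subunit of the ATP synthase rotor. It stood at 252, 381 and 302 CPM in flox controls and 457, 381, 412 and 484 CPM in knockouts in endothelial cells, and at 126, 132, 139, 171, 135, 144 and 188 CPM in fibroblasts. The groups did not overlap (log2 fold change 1.17, SE 0.10, adjusted p = 5.31e-10). Its sister genes did not pass: Atp5g1 differed by 0.15 (adjusted p = 0.222) and Atp5g3 by -0.03 (adjusted p = 0.787).

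After Atp5g2 came mt-Atp8 (1.04, SE 0.09) and the accessory complex I subunits Ndufb7 (1.01, SE 0.11) and Ndufa3 (0.95, SE 0.10). Then came Cox7a2l, which joins complexes III and IV in supercomplexes (0.86, SE 0.07, adjusted p = 2.69e-10), and Cox5a, a nuclear encoded subunit of complex IV (0.82, SE 0.09). Among the Sdh genes Sdha rose by 0.56 (SE 0.09), Sdhb by 0.30 (SE 0.11) and Sdhc by 0.27 (SE 0.09), and Sdhd differed by 0.09 (adjusted p = 0.571). The 3 lower members were Ndufa4l2 (-3.52, SE 0.40, adjusted p = 3.55e-08), Cox6b2 (-0.96, SE 0.28) and Ndufa1 (-0.38, SE 0.09). Ndufa1, an X-linked complex I subunit (chrX:37187588-37191163), was at 89.7 to 205 CPM in endothelial cells and 136 to 220.4 CPM in fibroblasts, with overlap between the classes.

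Set directly against smooth muscle, endothelial cells had 84 members lower and 3 higher (30.5% and 27.5% of all genes tested), with a median of -0.68. Among members whose mean level reached 4 log2 CPM, the steepest falls were those of mt-Nd4l (-1.71, SE 0.09), mt-Nd2 (-1.60), mt-Nd1 (-1.52), mt-Nd4 (-1.51), mt-Nd5 (-1.49) and mt-Nd3 (-1.48). Cox7a2l rose by 0.49 (SE 0.07, adjusted p = 3.1e-06), from 230.1 ± 34.6 CPM in smooth muscle to 402 ± 68.6 CPM in endothelial cells. Ndufa4l2 (1.67, SE 0.67, adjusted p = 0.0359) and Cox6b2 (0.94, SE 0.33, adjusted p = 0.0165) were also higher but rested on 21 and 37 endothelial UMIs, and without knockout 3 only 1 member was higher. Sdha differed by 0.19 (SE 0.09, adjusted p = 0.0874), whereas its partner Sdhc fell by 1.02 (SE 0.08). With the 10% mitochondrial limit, 49 members were lower in place of 84.

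Macrophages against fibroblasts showed changes in both directions, 29 members higher and 21 lower (35.3% and 40.2% of all genes tested). The shares of members were below these backgrounds in the higher direction and in the lower one, and the median was 0.06 against -0.06 over all genes. Complex I, the largest group, accounted for most falls: 16 of its 36 nuclear members fell and 3 rose, with a median of -0.11. Its share of falls was near the 40.2% of all genes, and its share of rises was far below the 35.3% of all genes. Of complex IV 6 of 16 rose and 2 fell, of complex III 4 of 8 rose and 1 fell, of complex V 4 of 17 rose and 2 fell, 3 of 4 Sdh genes rose, and 9 of 13 mitochondrial members rose.

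Among members whose mean level reached 4 log2 CPM, Cox5a led the rises, at 81.5, 84.8 and 89.4 CPM in flox controls and 149, 112, 118 and 108 CPM in knockouts in macrophages against 38.7 to 59.5 CPM in fibroblasts. All macrophage libraries lay above all fibroblast libraries (log2 fold change 1.15, SE 0.08, adjusted p = 4.68e-13). Atp5g2 (0.63, SE 0.10), the Rieske protein of complex III Uqcrfs1 (0.56, SE 0.10), Sdhb (0.53, SE 0.08), Ndufb8 (0.49, SE 0.08) and Cox7c (0.47, SE 0.09) followed. Ndufa11, a membrane arm subunit of complex I, was at 4.91, 4.84 and 4.96 CPM in flox controls and 14.3, 5.08, 6.40 and 9.96 CPM in knockouts, against 9.64 to 17.3 CPM in fibroblasts. The classes overlapped over libraries through knockouts 1 and 4, and within libraries the log2 fold change was -0.88 (SE 0.13, adjusted p = 1.55e-06). Ndufb2 (-0.78, SE 0.09), Ndufa1 (-0.63, SE 0.09), Ndufa5 (-0.62, SE 0.10) and Ndufb9 (-0.59, SE 0.11) also fell, all of them accessory subunits of complex I. Without TMM scaling, the median of all genes was -0.14 in this comparison, and without the library block 14 members were higher and 11 lower.

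Taking each member in the class where its mean was highest, all 13 mitochondrial genes peaked in smooth muscle. Of the 82 nuclear members with at least 100 UMIs over the 4 classes, 66 peaked in smooth muscle, 11 in endothelial cells, 3 in macrophages and 2 in fibroblasts. Both fibroblast members are minor isoforms of complex IV, Ndufa4l2 and Cox6b2.

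Ndufa4l2 was the member most tied to 1 class. Its protein takes the place of Ndufa4 and is known as a target of hypoxia-inducible factor. Fibroblasts held 54.1, 48.7 and 82.9 CPM in flox controls and 57.9, 45.8, 42.0 and 51.9 CPM in knockouts (11234 UMIs in all), while smooth muscle held 0.453 to 3.87 CPM (115 UMIs), endothelial cells 0 to 27.4 CPM (21 UMIs) and macrophages 0 to 4.15 CPM (26 UMIs). No library of another class reached the lowest fibroblast library. The log2 fold change against fibroblasts was -5.19 (SE 0.25, adjusted p = 8.48e-16) in smooth muscle and -5.19 (SE 0.33, adjusted p = 1.76e-13) in macrophages, in which Ndufa4 rose by 1.36 (SE 0.09) and differed by 0.18 (adjusted p = 0.0847). As a share of the pair's UMIs, Ndufa4l2 made up 34.8% ± 6.19 in fibroblasts (28.9% to 45.2%), 4.22% ± 4.29 in endothelial cells, 0.667% ± 0.594 in smooth muscle and 1.36% ± 1.70 in macrophages. Summed fibroblast markers in the same 3 classes were 439.7 to 1486, 2570.3 to 3824 and 432 to 1636 CPM, and how much of their low Ndufa4l2 level came from fibroblast RNA was not tested.

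Within fibroblasts the level depended on the subset. Cells with a UMI of Pi16, a marker of adventitial progenitor-like fibroblasts, and none of Fmod or Hhip held 26.9, 22.1 and 52.6 CPM of Ndufa4l2 in flox controls and 23.6, 23.8, 19.2 and 28.7 CPM in knockouts. Cells with Fmod or Hhip and no Pi16 held 64.9, 57.5 and 81.3 CPM and 74.7, 54.1, 49.3 and 80.4 CPM in the same order. The second subset was higher in 7 of 7 libraries, although its cells had fewer UMIs in each library. Ndufa4 ranged from 82.1 to 138 CPM in the first subset and from 75.7 to 129 CPM in the second, with overlap. Within each library, however, Ndufa4 was lower in the second subset. These subsets were chosen after earlier results of these data were known, and no test was run on them.

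Cox6b2, best known from testis and a counterpart of Cox6b1 in complex IV, showed a weaker form of the same preference. Its share of the pair was 7.44% ± 0.815 in fibroblasts (5.88% to 8.43%), 2.85% ± 0.637 in macrophages (1.92% to 3.72%), 2.76% ± 2.33 in endothelial cells and 1.07% ± 0.394 in smooth muscle (0.468% to 1.73%). Fibroblasts lay above macrophages and smooth muscle in all libraries, and endothelial cells reached 6.56% in knockout 1 on few UMIs. Against fibroblasts Cox6b2 fell by 1.90 (SE 0.16) in smooth muscle and by 1.07 (SE 0.19) in macrophages on the log2 scale, while Cox6b1 rose by 0.83 (SE 0.09) in smooth muscle.

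Cox4i2, the isoform of Cox4i1 that is known from lung and low oxygen, was a smooth muscle member at low level. Its level was 3.37, 4.13 and 6.10 CPM in flox controls and 3.20, 4.04, 2.40 and 18.3 CPM in knockouts (320 UMIs), against 0.224 to 2.02 CPM in fibroblasts. Smooth muscle was above fibroblasts in all libraries, with a log2 fold change of 2.89 (SE 0.34, adjusted p = 3.26e-08). It made up 1.90% ± 1.52 of the pair in smooth muscle, 0.553% ± 0.407 in fibroblasts, 0.379% in endothelial cells (3 UMIs) and 0.126% in macrophages (3 UMIs). Knockout 4, the library with the fewest smooth muscle cells (311), held 5.30% and each other library 0.926% to 1.72%.

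Cox7a1, the heart and skeletal muscle isoform of Cox7a2, was highest in macrophages rather than in smooth muscle. Macrophages held 2.26, 4.84 and 0 CPM in flox controls and 14.3, 4.80, 3.32 and 5.37 CPM in knockouts (97 UMIs), smooth muscle 0.824 to 2.82 CPM (127 UMIs) and fibroblasts 0.367 to 1.21 CPM (114 UMIs). Macrophages exceeded fibroblasts in 6 of 7 libraries (log2 fold change 3.23, SE 0.30, adjusted p = 3.44e-10), smooth muscle by 1.62 (SE 0.29, adjusted p = 1.64e-05) and endothelial cells by 1.59 on 9 UMIs (SE 0.66, adjusted p = 0.0452). The share of Cox7a1 in the sum with Cox7a2 was 5.90% ± 4.19 in macrophages and 0.765% to 1.15% on average in the other classes.

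The remaining isoform families split by class without an exclusive member. Cox7a2l made up 56.6% ± 4.79 of the Cox7a family in smooth muscle (48.2% to 62.3%), below every library of endothelial cells (67.7% to 80.2%), fibroblasts (68.3% to 75.4%) and macrophages (65.1% to 73.7%). This low share went with a rise of Cox7a2 by 1.41 (SE 0.09) and of Cox7a2l by 0.37 (SE 0.07) in smooth muscle against fibroblasts. Among the c subunit genes Atp5g2 made up 51.3% ± 5.79 in endothelial cells, 41.4% ± 2.20 in smooth muscle, 41.7% ± 3.98 in macrophages and 31.9% ± 2.33 in fibroblasts, where Atp5g3 led with 51.6% ± 2.31. Atp5g1 held 12.6% to 16.5% on average in the 4 classes. Cox6a2, the muscle isoform of Cox6a1, reached 23 UMIs in macrophages (0.527% of its pair), 35 in fibroblasts and 1 each in smooth muscle and endothelial cells. Cox8b gave 35 UMIs and Cox7b2 gave 11 in fibroblasts, and Cox8c had 1 UMI in the 4 classes, whereas the ubiquitous counterparts Cox6a1, Cox7b and Cox8a rose in smooth muscle by 1.25, 1.02 and 1.06.

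**Figure D3:**
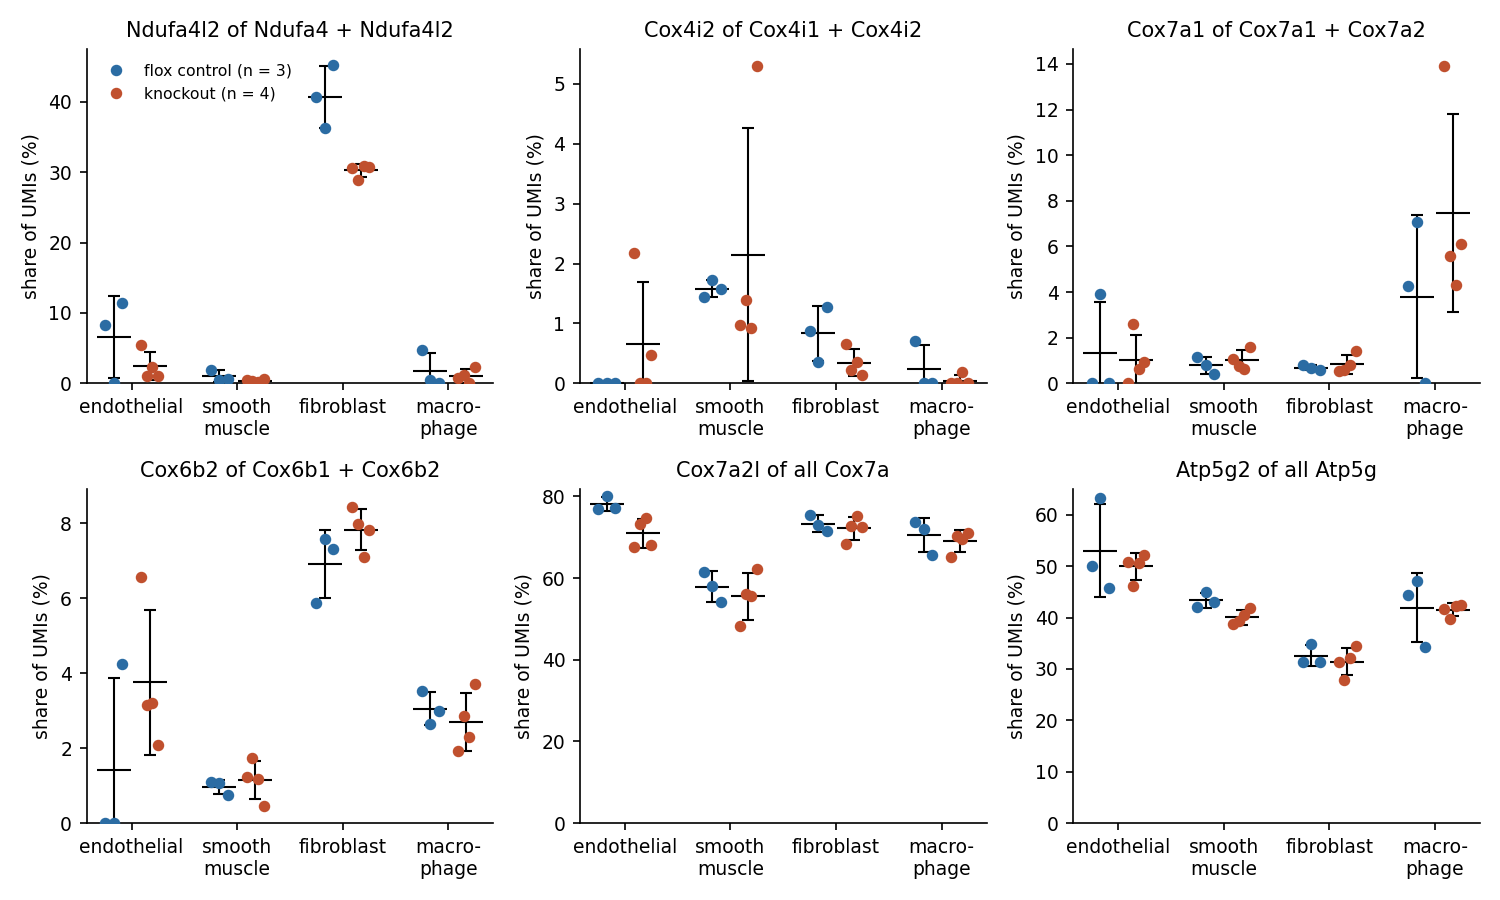
Share (%) of 1 isoform in the UMIs of its set by cell class, for 6 sets named above the panels. Points are libraries, lines are group means and bars are ± 1 SD, and the first panel shows Ndufa4l2 between 28.9% and 45.2% in fibroblasts and at most 11.4% in every library of the other classes.

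Genes that build and feed the chain were read from 10 lists of background knowledge, for context. In smooth muscle against fibroblasts, where 37.1% of all genes were higher and 37.8% lower, 12 of 14 complex I assembly factors rose and 0 fell, as did 13 of 14 tricarboxylic acid cycle genes, 15 of 16 genes of the large mitochondrial ribosome subunit and 4 of 4 complex V assembly genes. Of 21 tested complex IV assembly genes 16 rose and 1 fell, of 15 glycolysis genes 12 rose and 1 fell, of 10 electron carrier genes 8 rose and 2 fell, of 12 genes of mitochondrial DNA expression 8 rose and 2 fell, and of 10 complex II and III assembly genes 6 rose and 1 fell. Cox17, the copper chaperone of complex IV, rose by 2.01 (SE 0.09), Atpif1, the inhibitor of the ATP synthase, by 1.47 (SE 0.10), and citrate synthase, Cs, by 1.02 (SE 0.07). In the regulator list 3 rose, namely Ppargc1b (2.53, SE 0.22), Esrra (0.87, SE 0.09) and Ppargc1a (0.49, SE 0.20), and 5 fell, namely Pprc1 (-1.65, SE 0.11), Tfe3 (-0.97, SE 0.10), Nrf1 (-0.54, SE 0.10), Gabpa (-0.43, SE 0.12) and Yy1 (-0.35, SE 0.08). Tfam, which packages mitochondrial DNA and helps to start its transcription, differed by -0.14 (adjusted p = 0.22), while the 13 transcripts it serves rose.

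In endothelial cells against fibroblasts, where 25.9% of all genes were higher and 29.4% lower, 10 of 21 complex IV assembly genes rose and 2 fell, Cox17 among the rises (1.41, SE 0.10). Of 14 tricarboxylic acid cycle genes 4 rose and 5 fell, and of 15 glycolysis genes 3 rose and 5 fell. Of 14 complex I assembly genes 3 rose and 0 fell, of 10 for complexes II and III 4 rose and 1 fell, of 4 for complex V 1 rose and 0 fell, and of 10 electron carriers 1 rose and 2 fell. Of 12 genes of mitochondrial DNA expression 1 rose and 0 fell, and of 16 mitochondrial ribosome genes 5 rose and 1 fell. The shares that rose for complex I assembly, complex V assembly, electron carriers, mitochondrial DNA expression and glycolysis were below that of all genes. Of 8 regulators 0 rose and 4 fell (Pprc1, Tfe3, Gabpa and Yy1).

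In macrophages against fibroblasts, where 35.3% of all genes were higher and 40.2% lower, 8 of 14 complex I assembly genes fell and 1 rose, beside the falls of complex I subunits given above, and 6 of 10 electron carriers fell and 1 rose. Of 21 complex IV assembly genes 9 rose and 3 fell, of 10 for complexes II and III 2 rose and 2 fell, and of 4 for complex V 2 rose and 1 fell. Of 12 genes of mitochondrial DNA expression 4 rose and 2 fell, of 14 tricarboxylic acid cycle genes 5 and 5, of 15 glycolysis genes 7 and 7, and of 16 mitochondrial ribosome genes 3 and 4. Of 8 regulators 5 rose, Ppargc1b by 2.60 (SE 0.25) and Tfe3 by 1.34 (SE 0.10) leading, and 1 fell, Ppargc1a by 3.22 (SE 0.46).

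Turning to genotype, no member passed an adjusted p under 0.05 in any of the 4 classes, and neither did any other gene (0% of 7466, 12726, 15289 and 10396 genes tested in endothelial cells, smooth muscle, fibroblasts and macrophages). DESeq2 likewise called 0 members, and 0, 9, 5 and 2 genes in all. At an unadjusted p under 0.05 edgeR held 446, 571, 670 and 792 genes and DESeq2 239, 331, 674 and 629 in the same order. What follows are therefore differences that did not pass the test.

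Members leaned to higher values in the knockouts in each class, in a background where 48.5% to 49.4% of all genes had a positive log2 fold change. In endothelial cells 83 of 89 tested members were higher (48.7% of all genes), with a median of 0.38 against -0.01. Smooth muscle had 87 of 95 higher (48.6%) and a median of 0.18, fibroblasts 88 of 95 (48.5%) and 0.19, and macrophages 89 of 92 (49.4%) and 0.33, and the median of all genes was -0.01 in each class. At an unadjusted p under 0.05 in edgeR, 22 members were higher and 0 lower in endothelial cells, 9 and 1 in smooth muscle, 14 and 1 in fibroblasts, and 29 and 1 in macrophages. The counts over all genes at that p, given above, take both directions together, so they are no background for each direction. Members move together in a library, so the counts of members are not independent of each other.

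**Figure D4:**
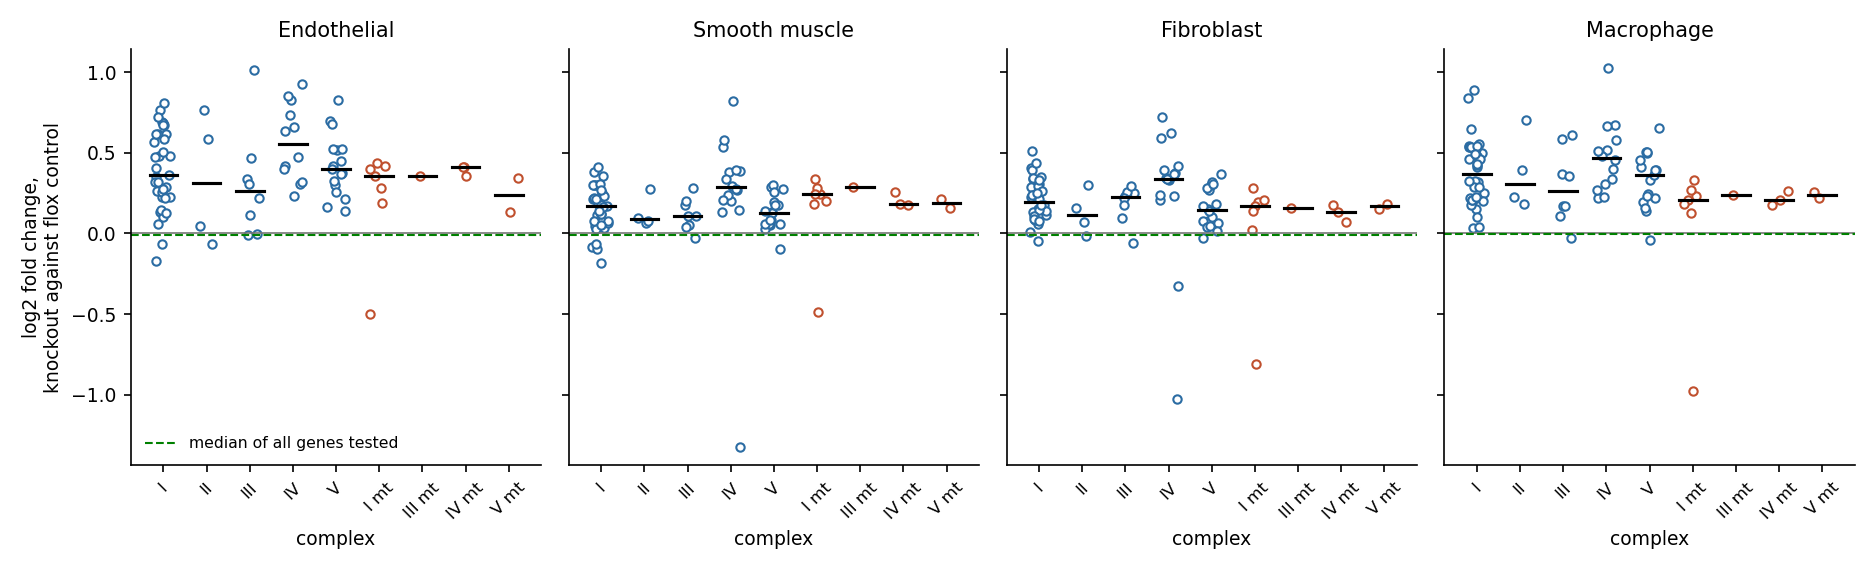
Log2 fold change of knockouts against flox controls for each tested member by complex, in 4 classes, with nuclear members in blue and mitochondrial ones (mt) in orange. All points are open because none had an adjusted p under 0.05, black lines are medians per complex, the dashed line is the median of all genes tested, and mt-Nd6 is the lowest mitochondrial point in each class, at -0.50, -0.49, -0.81 and -0.98.

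The summed shares show the same lean and how far the groups overlapped. Endothelial nuclear members took 0.696%, 0.811% and 1.01% in flox controls and 1.06%, 1.05%, 1.00% and 1.23% in knockouts, 0.839% ± 0.159 (n = 3) against 1.08% ± 0.0995 (n = 4). The groups overlapped through flox control 3 and knockout 3. By complex, the endothelial sums of complex II (0.0248% ± 0.00281 against 0.0326% ± 0.00146) and complex V (0.255% ± 0.0347 against 0.323% ± 0.0326) did not overlap, and I, III and IV did. Macrophage nuclear members took 0.504%, 0.571% and 0.586% in flox controls and 0.848%, 0.663%, 0.672% and 0.720% in knockouts, without overlap (0.554% ± 0.0435 against 0.726% ± 0.0853, 1.31-fold), and complexes I, II, IV and V each did not overlap while III did. Smooth muscle (1.19% ± 0.179 against 1.31% ± 0.0627) and fibroblasts (0.594% ± 0.0700 against 0.701% ± 0.0852) overlapped.

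The mitochondrial sums were 6.68% ± 1.76 against 8.34% ± 1.05 in endothelial cells, 14.3% ± 1.88 against 16.2% ± 0.923 in smooth muscle, 4.53% ± 0.808 against 5.03% ± 0.393 in fibroblasts and 5.01% ± 0.649 against 5.94% ± 0.681 in macrophages, with overlap in each class. In smooth muscle the sums of mitochondrial complex I (6.60% ± 0.818 against 7.57% ± 0.311) and of mt-Cytb did not overlap. The ratio of mitochondrial to nuclear UMIs overlapped in all 4 classes, with means of 7.88 and 7.69 in endothelial cells and 12.1 and 12.4 in smooth muscle. Median log2 fold changes of nuclear complex IV were the largest of the 5 complexes in each class, at 0.55, 0.29, 0.34 and 0.47 in the order endothelial, smooth muscle, fibroblast and macrophage, and those of complex II or III the smallest.

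Some members separated the groups in a class without passing the test. Knockout libraries all lay above the flox libraries for 24 of 89 members in endothelial cells and 4 of 95 in smooth muscle. In fibroblasts this held for 8 of 95 and in macrophages for 30 of 92. Over all genes tested the shares were 3.28%, 1.37%, 2.09% and 3.84% in the same order of classes. In each class 0 members lay below, against 4.49%, 3.61%, 2.66% and 4.23% of all genes.

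Cox7c, a small nuclear subunit of complex IV (chr13:86044816-86046904), did so in each of the 4 classes. Endothelial cells held 171, 262 and 346 CPM in flox controls and 399, 559, 457 and 479 CPM in knockouts (log2 fold change 0.93, SE 0.27, adjusted p = 0.819). In smooth muscle the values were 458, 476 and 604 CPM and 743, 779, 702 and 622 CPM (0.53, SE 0.16, adjusted p = 0.965). Fibroblasts held 157, 176 and 220.1 CPM and 291, 288, 260.0 and 267 CPM (0.59, SE 0.17, adjusted p = 0.957), and macrophages 193, 227 and 293 CPM and 424, 388, 372 and 338 CPM (0.66, SE 0.21, adjusted p = 0.634). Flox control 3 was the highest flox library in each class. Cox7c was chosen for this description because it had the smallest p in smooth muscle and fibroblasts.

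In endothelial cells Ndufa1 had the smallest p, with 89.7, 140.5 and 126 CPM in flox controls and 205, 204, 186 and 194 CPM in knockouts (0.77, SE 0.22, adjusted p = 0.819). Uqcr11, a small subunit of complex III, stood at 42.7, 59.2 and 93.3 CPM and 131, 108, 102 and 145 CPM (1.01, SE 0.30, adjusted p = 0.819), and Cox6b1 at 145, 188 and 247 CPM and 299, 338, 285 and 400.1 CPM (0.85, SE 0.26, adjusted p = 0.819). All 3 kept their groups apart. Of complex II, Sdha (85.4, 115 and 87.8 CPM against 158, 146, 146 and 123 CPM) and Sdhd (51.2, 66.0 and 38.4 CPM against 84.0, 101, 72.8 and 94.9 CPM) differed by 0.58 (SE 0.21, adjusted p = 0.819) and 0.76 (SE 0.26, adjusted p = 0.819) without overlap, whereas Sdhb and Sdhc differed by -0.06 (adjusted p = 0.994) and 0.05 (adjusted p = 0.993) with overlap.

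Macrophages had the smallest p of all members at Ndufc1, a complex I subunit, with 30.9, 29.8 and 18.2 CPM in flox controls and 65.3, 48.0, 44.8 and 46.0 CPM in knockouts (0.89, SE 0.18, adjusted p = 0.634). Sdhd (0.70, SE 0.17, adjusted p = 0.634), Uqcr11 (0.61, SE 0.16, adjusted p = 0.634) and Ndufa1 (0.65, SE 0.18, adjusted p = 0.634) followed, each without overlap. Among members whose mean level reached 4 log2 CPM, the complex I members Ndufa6 (52.1, 62.4 and 72.5 CPM against 84.7, 82.8, 84.3 and 101 CPM), Ndufa12 and Ndufa8 came after Cox7c in fibroblasts, at 0.51 (SE 0.16, adjusted p = 0.957), 0.35 (SE 0.12, adjusted p = 0.957) and 0.41 (SE 0.14, adjusted p = 0.957), with overlap for Ndufa8. In smooth muscle Ndufc1 (0.41, SE 0.15, adjusted p = 0.965), Sdhd (0.27, SE 0.10, adjusted p = 0.965) and Cox7b (0.38, SE 0.15, adjusted p = 0.965) came after Cox7c among members with that mean level, and their groups overlapped.

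A single mitochondrial transcript went the other way. mt-Nd6 (chrM:13552-14070) is the one protein gene on the light strand, and it was rare, with 7.78 to 22.5 CPM on average in the 4 classes. Fibroblasts held 12.4, 14.2 and 4.66 CPM in flox controls and 6.28, 6.19, 6.82 and 3.89 CPM in knockouts (-0.81, SE 0.32, adjusted p = 0.957), and macrophages 12.8, 15.3 and 3.31 CPM and 4.94, 6.77, 7.11 and 4.22 CPM (-0.98, SE 0.36, adjusted p = 0.634). Smooth muscle showed 29.6, 44.0 and 10.5 CPM and 19.0, 22.1, 18.7 and 13.4 CPM (-0.49, SE 0.34, adjusted p = 0.965), and endothelial cells 17.1, 20.3 and 0 CPM and 5.25, 17.9, 11.3 and 4.61 CPM (-0.50, adjusted p = 0.914). Flox control 3 was the lowest flox library in each class and lay within or below the knockouts, so the groups overlapped. At an unadjusted p under 0.05, 0 members were lower in macrophages without flox control 1 or 2, and 0 in fibroblasts without flox control 1 or knockout 4.

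**Figure D5:**
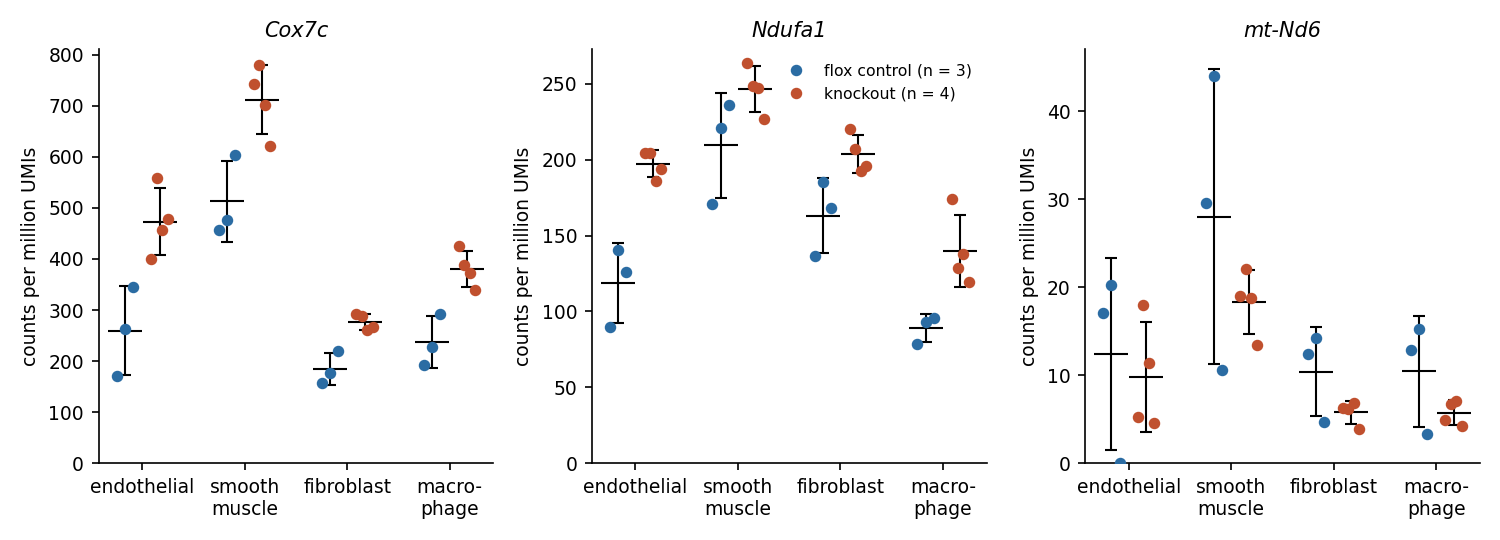
CPM of Cox7c, Ndufa1 and mt-Nd6 in each library (points) by cell class, with group means (lines) and ± 1 SD (bars). Knockout points of Cox7c lie above all flox points in each class, while mt-Nd6 has flox control 1 and 2 high and flox control 3 low, for example 12.4, 14.2 and 4.66 CPM in fibroblasts.

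Of 44 isoform shares compared over the 4 classes, 3 kept the genotypes apart. As a background, 3.28%, 1.37%, 2.09% and 3.84% of all genes tested in endothelial cells, smooth muscle, fibroblasts and macrophages lay above without overlap. In the same order, 4.49%, 3.61%, 2.66% and 4.23% lay below. A count of 3 in 44 is near this background, and no share was tested. In fibroblasts Ndufa4l2 made up 40.7%, 36.4% and 45.2% of the pair in flox controls and 30.6%, 28.9%, 30.9% and 30.8% in knockouts, without overlap (40.8% ± 4.41 against 30.3% ± 0.952). Neither gene passed alone: Ndufa4l2 differed by -0.33 (SE 0.21, adjusted p = 0.957) with overlap and Ndufa4 by 0.37 (SE 0.15, adjusted p = 0.957) with overlap. The share of Cox7a2l in endothelial cells (78.1% ± 1.79 against 70.9% ± 3.58) and that of Atp5g2 in smooth muscle (43.3% ± 1.52 against 40.0% ± 1.38) were also lower in all knockouts. The other shares overlapped.

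Whether the endothelial difference exceeded that of smooth muscle was tested as an interaction in edgeR, and 0 of 90 members and 0 of 9454 genes passed (0% called). At an unadjusted p under 0.05 edgeR held 304 genes and DESeq2 166, and DESeq2 called 0 members. The smallest p was that of Uqcr11, whose knockout effect was larger in endothelial cells by 0.90 (SE 0.26, adjusted p = 1). Of 90 members 82 had a larger effect in endothelial cells, with a median of 0.21 against 0.01 over all genes. The lean in endothelial cells was therefore not shown to differ from that in smooth muscle.

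The size of the lean depended on single libraries, while the medians stayed positive without flox control 1 or without flox control 3. Without flox control 1, 81 of 90 endothelial members were higher (median 0.24), 67 of 95 in smooth muscle (0.07), 72 of 95 in fibroblasts (0.11) and 86 of 93 in macrophages (0.21), with 11, 2, 2 and 12 higher at an unadjusted p under 0.05. Without flox control 3 those counts were 30, 51, 47 and 44 and the medians 0.58, 0.35, 0.35 and 0.45. Without flox control 2, 12 endothelial, 1 smooth muscle and 3 fibroblast members were higher at that p. Leaving out knockout 4 gave 10 in endothelial cells, 6 in smooth muscle and 8 in fibroblasts, knockout 1 gave 1 in smooth muscle and 7 in fibroblasts, and knockout 2 gave 2 and 6. With the 10% mitochondrial limit, 57 of 90 smooth muscle members were higher with a median of 0.05 and 2 at that p. Counts over all genes at that p in each of these settings are not set beside the member counts. Whether all genes moved alike can therefore not be read from them.

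Measures of the libraries moved beside the lean. Ribosomal protein genes took 3.89%, 4.01% and 5.58% of fibroblast UMIs in flox controls and 4.83%, 4.89%, 4.77% and 6.12% in knockouts, and the nuclear long RNA Malat1 took 0.377%, 0.407% and 0.256% and 0.282%, 0.251%, 0.289% and 0.291%. Flox control 3 stood with the knockouts in both, as it did for many members. In endothelial cells ribosomal genes took 6.67% ± 1.59 against 8.09% ± 1.27 and Malat1 0.484% ± 0.158 against 0.363% ± 0.0884, in macrophages 4.30% ± 0.681 against 4.70% ± 0.542 and 0.474% ± 0.0809 against 0.374% ± 0.0223, and in smooth muscle 5.26% ± 1.12 against 5.54% ± 0.555 and 0.388% ± 0.0876 against 0.274% ± 0.0502, all with overlap. Erythroid markers were summed at 6135 CPM in the smooth muscle cells and 5537 CPM in the macrophages of knockout 4. They reached no more than 557 CPM and 711 CPM in those classes of the other libraries. In endothelial cells erythroid markers ranged from 115 to 5198 CPM in flox controls and from 15.8 to 3913 CPM in knockouts. In fibroblasts they ranged from 192 to 309 CPM and from 31.8 to 2466 CPM. Smooth muscle markers in endothelial cells were 598 to 1050.3 CPM in flox controls and 320.3 to 512 CPM in knockouts, without overlap. Fibroblast markers there were 667 to 1486 CPM and 439.7 to 1083 CPM, with overlap. The part of these measures in the lean was not tested.

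Of the genes that build and feed the chain, 0 passed with genotype in any class. In endothelial cells, 48.7% of all genes tested were higher in knockouts. Complex IV assembly genes were higher there in 8 of 10 (median 0.40) and tricarboxylic acid cycle genes in 11 of 14 (median 0.35). Biogenesis regulators were higher in 0 of 5 (median -0.30) and electron carriers in 2 of 6 (median -0.24). Complex I assembly genes were higher in 3 of 6, complex II and III assembly in 3 of 6 and complex V assembly in 1 of 2. Mitochondrial DNA expression genes were higher in 6 of 8, glycolysis in 9 of 13 and the mitochondrial ribosome in 7 of 11. In smooth muscle, fibroblasts and macrophages, complex IV assembly genes were higher in 16 of 21, 16 of 21 and 17 of 19. Tricarboxylic acid cycle genes were higher there in 13 of 14, 9 of 14 and 12 of 14. Regulators were higher in 3 of 8, 4 of 8 and 4 of 7, and electron carriers in 8 of 10, 8 of 10 and 9 of 10. The shares of all genes there were 48.6%, 48.5% and 49.4%. In endothelial cells the smallest p of these lists was that of Cox17 (0.70, SE 0.23, adjusted p = 0.819). Cs (0.60, SE 0.23, adjusted p = 0.819) and Atpif1 (0.85, SE 0.33, adjusted p = 0.819) followed there, and Tfam differed by 0.75 (SE 0.37, adjusted p = 0.819). Tfe3 (-0.67, SE 0.34), Nrf1 (-0.59, SE 0.41) and Yy1 (-0.25, SE 0.22) stood below, also without passing.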

How the data were processed

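Gene by cell counts of UMIs were used as the authors deposited them, 1 matrix per library, with no normalization. The submitters' processing notes name CASAVA 1.8, STARsolo 2.7.10a and Seurat and the build mm10, without their roles. Members and lists were chosen with earlier results of these data known, and gate thresholds after seeing the data.

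Cells needed 200 genes and at most 25% mitochondrial UMIs. A class needed UMIs of 5 of its 8 markers and 2 more than any other class, which also removes mixed cells, and no doublet caller was run. Sums over cells (at least 20 per library and class) were tested with edgeR 4.0.16 in R 4.3.3 (TMM, quasi-likelihood, filterByExpr, Benjamini-Hochberg over all genes tested, adjusted p under 0.05). Cell type comparisons had the library as a block, and genotype comparisons had no covariate. Fits were tested on simulated data. DESeq2 1.42.0, other scalings, filters, gates and leaving out each library were alternatives. Sums, shares and ratios are given by library without a test.

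Named members were all 13 mitochondrial ones, the Sdh genes, the isoform sets, the 6 largest changes in each direction per cell type comparison and the 4 smallest p per class for genotype, from a mean of 4 log2 CPM. The count of alternative values of named results covers only the isoform sets, the largest changes and the smallest p. Mitochondrial and Sdh genes entered that count only where they were among these.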

Additional observations from a re-analysis of the deposited data

Results flagged for a closer look

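Among 49 groups of 4 libraries examined, 2 had a library far from the others, and chance flags about 1 in 20 groups. Cox4i2 stood at 18.3 CPM in the smooth muscle cells of knockout 4 and at 2.40 to 4.04 CPM in the other knockouts, a gap of 0.897 of the group's range, above Dixon's critical value for 4 values. Atp5g3 stood at 238 CPM in the fibroblasts of knockout 3 and at 270.4 to 274 CPM in the other knockouts, a gap of 0.903 of the range.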

How the results depend on the processing

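Counts of called members under other filters, blocks, limits and sets of libraries, here and above, stand without counts over all genes in those settings. Whether all genes moved alike can therefore not be read from them. With no filter on low counts, 1 macrophage member was higher in knockouts, and 16 members were higher in macrophages than in fibroblasts. Without the library block the macrophage comparison gave 14 higher and 11 lower. With the 10% mitochondrial limit, 49 members were lower in endothelial cells than in smooth muscle, the log2 ratio of knockouts to flox controls for the mitochondrial share of smooth muscle was 0.011, the smooth muscle to fibroblast ratios were 0.69 (nuclear) and 0.87 (mitochondrial), and Atp5g2 reversed to 0.084 in endothelial cells against smooth muscle. That limit leaves fewer smooth muscle cells; otherwise the cause was not tested. Leaving out 1 library at a time gave 51 to 66 members higher and 3 to 5 lower in endothelial cells against fibroblasts (5 without flox control 3), 20 to 30 and 18 to 21 in macrophages, 1 to 3 and 81 to 86 in endothelial cells against smooth muscle (1 without knockout 3), 92 and 2 in smooth muscle against fibroblasts, and 0 by genotype. With the replicate number as a block, 0 members were called by genotype in each class. No class had all 3 correlations of equally numbered libraries over 0.1. They ran from -0.09 (macrophages, number 2) to 0.28 (fibroblasts, number 3), so the numbers were not shown to pair the libraries. These few values cannot settle whether some equal numbers shared a batch. Of 2847 alternative values of 169 named results, 2799 were counted as unchanged. For a result called in the main setting, this means that call and direction were kept. For a result not called, as all those by genotype, a change of sign also counted as unchanged. The count therefore does not show that such results kept their direction. The looser gate was chosen after seeing the data. Endothelial depth limits what could be detected, with 15 of 100 members under 100 UMIs.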

Other observations

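Smaller classes, pooled over libraries and thus without replicate error, spanned a wider range. The 24 cells of the adipocyte gate took 2.85% of UMIs for nuclear and 20.1% for mitochondrial members. They held 79 UMIs of Cox8b (185 CPM) and 52 of Ucp1 (121.5 CPM), the uncoupling protein of brown fat, but 0 of Cox7a1 and 0 of Cox6a2. Knockouts 2 to 4 gave 7, 6 and 9 of these cells, and flox controls 2 and 3 gave 1 each. The 224 neutrophils, 133 of them from knockout 1, took 0.384% and 1.86%. T cells (226 cells) took 0.905% and 6.64%, B cells (102) 0.763% and 8.79%, mast cells (287) 0.557% and 6.23%, and Schwann cells (65) 0.671% and 5.96%. The 11006 cells without a class took 0.781% and 7.64%.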
